A study of Mus musculus with 3 samples.

Results

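The miR-29 family was described in small RNA libraries of mouse fibro/adipogenic progenitors. These cells, called FAPs, are stromal cells that live between muscle fibres, lay down matrix and can turn into fibroblasts or fat cells. The members were chosen by name, as the 5 mature miRNAs mmu-miR-29a-3p, mmu-miR-29b-3p, mmu-miR-29c-3p, mmu-miR-29a-5p and mmu-miR-29c-5p (the mouse prefix mmu is left out below), out of 659 mature mouse names and 1097 measured items in all. Each name had a single row in the deposited table, and all 5 passed the filter on low values, a mean over the libraries of at least 10 CPM, which are counts per 1000000 counts.

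The 3 libraries came from wild type cells that were taken from muscle and not cultured. The first, called cardiotoxin here, is from muscle 5 days after injection of cardiotoxin, a toxin from snake venom that kills the fibres, which then regenerate. The second, called denervated, is from muscle 3 weeks after sciatic denervation, which takes away its nerve supply and leads to atrophy, and the third, called normal, is from muscle without injury. Each condition has 1 library, so no difference below has a replicate check, no test between conditions was possible and the 95% intervals cover counting error only. For the strain, age and number of animals, and for how the cells were isolated, nothing is stated in the labels.

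A miRNA guides the silencing complex to messenger RNAs that pair with its seed, the bases near its 5′ end. The miR-29 family is known for restraining matrix production: its 3p arms pair with messenger RNAs of fibrillar collagens, elastin and fibrillin, transforming growth factor beta lowers it in fibroblasts of several organs, and low levels accompany fibrosis of heart, lung and kidney. In skeletal muscle, FAPs are a main source of that matrix. Collagen messenger RNAs are not analysed here.

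The mature sequences below show why the 3p arms count as 1 family and the 5p arms do not. All are from RefSeq (GRCm38.p6), 5′ to 3′, with the seed (bases 2 to 8) in capitals, and all 5 members were found there.

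miR-29a-3p: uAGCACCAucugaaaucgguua
miR-29b-3p: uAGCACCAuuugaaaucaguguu
miR-29c-3p: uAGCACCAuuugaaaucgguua
miR-29a-5p: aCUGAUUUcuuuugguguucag
miR-29c-5p: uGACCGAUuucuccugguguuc
miR-29b-1-5p: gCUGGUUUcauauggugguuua
miR-29b-2-5p: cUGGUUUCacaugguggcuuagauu

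The 3p arms share the seed AGCACCA, which 3 of 1679 mature mouse miRNAs in RefSeq carry, all of them these arms. No other row of the deposited table carried it. Counted from 1 at the 5′ end, miR-29a-3p differs from miR-29c-3p by C10U alone. miR-29b-3p differs from miR-29c-3p by A18G, G21U and U22A and is 1 base longer, and it ends in AGUGUU, a motif known in human cells to direct miR-29b to the nucleus. Among the mature miRNAs of RefSeq, 2 of 1679 end in these letters, miR-29b-3p and miR-92b-5p. The seeds of the 5p arms differ from this one and from each other. The deposited sequences of the 3p arms and of miR-29c-5p equalled those of RefSeq, and that of the miR-29a-5p row was 20 bases long, 2 fewer than in RefSeq.

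The family comes from 2 pairs of genes. Mir29a lies on the minus strand of chr6:31062660-31062747 with Mir29b-1 at chr6:31063023-31063093, 275 bases away. GENCODE M21 places Mir29a in no other gene, while Mir29b-1 overlaps the end of the long noncoding RNA Gm27019 by 2 bases. Mir29b-2 (chr1:195037040-195037120) and Mir29c (chr1:195037547-195037634) lie 426 bases apart on the plus strand of chromosome 1, within an exon of the noncoding transcript A330023F24Rik and opposite an exon of Cd46. Both miR-29b genes give the same miR-29b-3p, so its count cannot be assigned to a chromosome, whereas their 5p arms, miR-29b-1-5p and miR-29b-2-5p, can. These arms are no members but are given where the gene of origin matters. The Mir29a hairpin, the source of nearly all miR-29 counts, is shown with its 5p arm first and its 3p arm second in capitals.

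Mir29a: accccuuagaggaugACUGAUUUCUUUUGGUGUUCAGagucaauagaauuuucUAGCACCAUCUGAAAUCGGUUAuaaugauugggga

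The libraries held 3636249 counts (cardiotoxin), 7193088 (denervated) and 4471365 (normal), so that 1 count stands for 0.275, 0.139 and 0.224 CPM in that order. In the library labelled cardiotoxin the markers of mesenchymal cells, to which FAPs belong, went against the label: their summed level was 639 CPM, against 135515 CPM in denervated and 114079 CPM in normal. Of these 7 miRNAs all were at least 2-fold lower than in normal, and miR-214-5p had a count of 0, which allows up to 0.825 CPM. The 6 leukocyte miRNAs summed to 23538 CPM in cardiotoxin, 762 CPM in denervated and 422 CPM in normal, and all 6 were at least 2-fold higher in cardiotoxin than in normal. Of the other markers, 2 of 2 endothelial miRNAs were 2-fold higher in cardiotoxin (19251 CPM, against 5401 CPM in normal), 2 of 5 muscle fibre miRNAs were higher (928 CPM, against 903 CPM in normal), and of 5 epithelial miRNAs 2 were higher and 2 lower (290 CPM, against 904 CPM in normal), with miR-205-5p at a count of 0 in cardiotoxin. Over all 446 items that passed the filter, 32.3% were at least 2-fold higher in cardiotoxin than in normal and 39.5% lower. In samples of many cells, fewer cells of a type and less RNA per cell cannot be told apart. The part of these markers in the miR-29 values was not tested. miR-21a-5p, a miRNA induced in many injured tissues, stood at 538721 CPM in cardiotoxin, 103762 CPM in denervated and 21423 CPM in normal, and by its size alone it lowers the CPM of every other miRNA in cardiotoxin. The counts of muscle fibre and epithelial markers past 2-fold also shift with the scaling. Under totals without miR-21a-5p, 3 of 5 epithelial miRNAs were higher in cardiotoxin than in normal. With TMM factors, 1 of 5 muscle fibre miRNAs was lower.

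miR-29a-3p was the main form of the family in every library. It stood at 12459 CPM in cardiotoxin (12345 to 12575), 27323 CPM in denervated (27202 to 27444) and 17463 CPM in normal (17341 to 17586). It ranked 9 among the 659 mature mouse names in cardiotoxin, 9 in denervated and 18 in normal. The denervated library was the highest and cardiotoxin the lowest, and none of the 3 intervals overlapped. miR-29a-3p made up 99.2% of the summed 3p arms in cardiotoxin, 99.2% in denervated and 99.1% in normal, so the summed level of the family is in effect that of miR-29a-3p.

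miR-29b-3p and miR-29c-3p were scarce and had different orders. miR-29b-3p stood at 59.95 CPM in cardiotoxin (218 counts, 52.3 to 68.5 CPM), 57.4 CPM in denervated (413 counts, 52.0 to 63.2 CPM) and 27.6 CPM in normal (123 counts, 22.9 to 32.8 CPM). Both libraries from injured muscle were thus above normal, and their intervals overlapped each other. miR-29c-3p stood at 41.9 CPM in cardiotoxin (35.4 to 49.0), 171 CPM in denervated (162 to 181) and 128 CPM in normal (118 to 139). Here denervated was highest and cardiotoxin lowest, as for miR-29a-3p, without overlap. In denervated and normal miR-29c-3p was above miR-29b-3p, and in cardiotoxin below it.

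The 5p arms, which are usually the less stable strand of these hairpins, were all under 34 CPM. miR-29a-5p stood at 28.1 CPM in cardiotoxin, 33.9 CPM in denervated and 28.9 CPM in normal, with intervals that all overlapped. miR-29c-5p, the scarcest member, stood at 9.08 CPM in cardiotoxin (33 counts, 6.25 to 12.7 CPM), 10.98 CPM in denervated (79 counts, 8.70 to 13.7 CPM) and 18.6 CPM in normal (83 counts, 14.8 to 23.0 CPM). Both libraries from injured muscle were below normal for this arm. The order of the members by level was miR-29a-3p, miR-29c-3p, miR-29a-5p, miR-29b-3p and miR-29c-5p in normal, where the intervals of miR-29a-5p and miR-29b-3p overlapped. In denervated miR-29b-3p stood above miR-29a-5p, and in cardiotoxin it was second after miR-29a-3p.

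**Figure D1:**
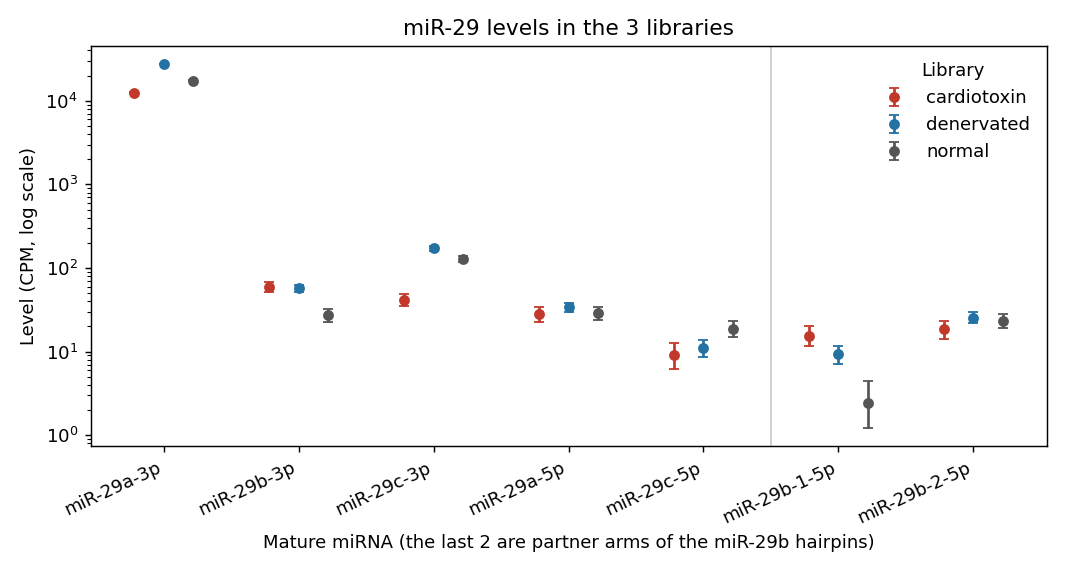
Level of each miR-29 arm in CPM (log axis) in the cardiotoxin, denervated and normal libraries. Points are single libraries and bars are exact 95% Poisson intervals, which cover counting error only; the lowest level of miR-29a-3p is 12459 CPM, and the highest of any other arm is 171 CPM.

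Between cardiotoxin and normal the family did not move as 1 block. Of the 5 members, miR-29b-3p was at least 2-fold higher, miR-29c-3p at least 2-fold lower and the other 3 within 2-fold. Among all 446 items that passed the filter, 71.7% were at least 2-fold apart, 32.3% higher and 39.5% lower, so the members' share is no larger than the background. miR-29a-3p was 1.40-fold lower in cardiotoxin (1.39 to 1.42), a log2 ratio of -0.49. miR-29b-3p was 2.17-fold higher (1.74 to 2.74), with a log2 ratio of 1.09. miR-29c-3p was 3.06-fold lower (2.56 to 3.70), with a log2 ratio of -1.59. The median log2 ratio of the members was -0.49, beside -0.09 over all items and -0.46 over the 364 mature mouse miRNAs among them.

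Of the 5p arms in the same comparison, miR-29c-5p was 2.05-fold lower in cardiotoxin (1.35 to 3.16) without reaching 2-fold on the log2 scale with a pseudocount of 1 (-0.96). miR-29a-5p was 1.03-fold lower, with an interval from 1.35-fold lower to 1.27-fold higher. Both arms of miR-29c were thus below normal in CPM over all counts.

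These values depend on how the libraries are scaled, because miR-21a-5p held so much of the cardiotoxin library. Under totals without miR-21a-5p the median log2 ratio over all items was 1.06 higher, giving 220 items higher and 135 lower in place of 144 and 176. The log2 ratio of miR-29a-3p then changed sign to 0.60, that of miR-29c-5p to 0.05 and that of miR-29a-5p to 1.02, while miR-29b-3p was at 2.17 and miR-29c-3p at -0.52, no longer 2-fold lower. Other scalings shifted that median by -0.28 (TMM), -0.17 (DESeq2) and -0.28 (the authors' signal), and under each of them miR-29b-3p was less than 2-fold higher. Under the same 3 scalings miR-29c-5p was past 2-fold lower, at -1.22, -1.11 and -1.21, as it was with a pseudocount of 0.1 (-1.02). When the median under the same scaling is subtracted, the factor of a library cancels. Such values hardly differ between scalings by construction and depend on the reference set instead. Relative to the median of all items, miR-29a-3p stood at -0.40 on the log2 scale (-0.40 to -0.37 over 6 scalings), miR-29b-3p at 1.18 (1.18 to 1.20) and miR-29c-3p at -1.50 (-1.50 to -1.49). Relative to the median of mature mouse miRNAs alone, miR-29a-3p differed by -0.02, miR-29b-3p by 1.56 and miR-29c-3p by -1.13.

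**Figure D2:**
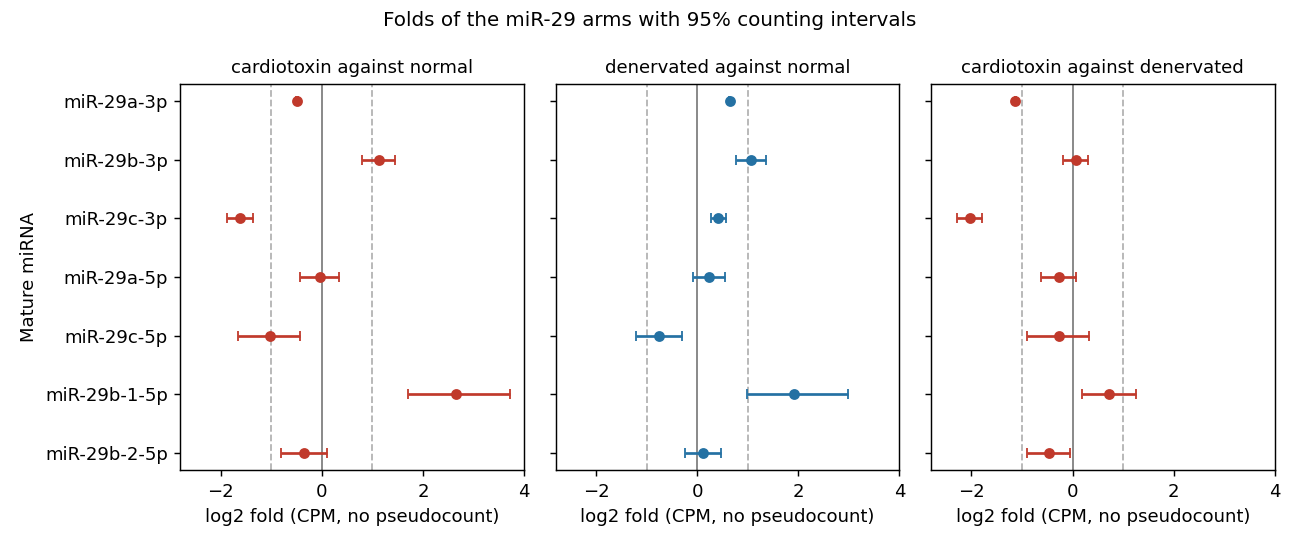
Log2 fold of each miR-29 arm in the 3 comparisons, from CPM without a pseudocount. Points are folds between single libraries, bars exact 95% intervals for counting error, and dashed lines mark 2-fold; in cardiotoxin against normal miR-29b-3p lies to the right of 0 and miR-29c-3p to the left.

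**Figure D3:**
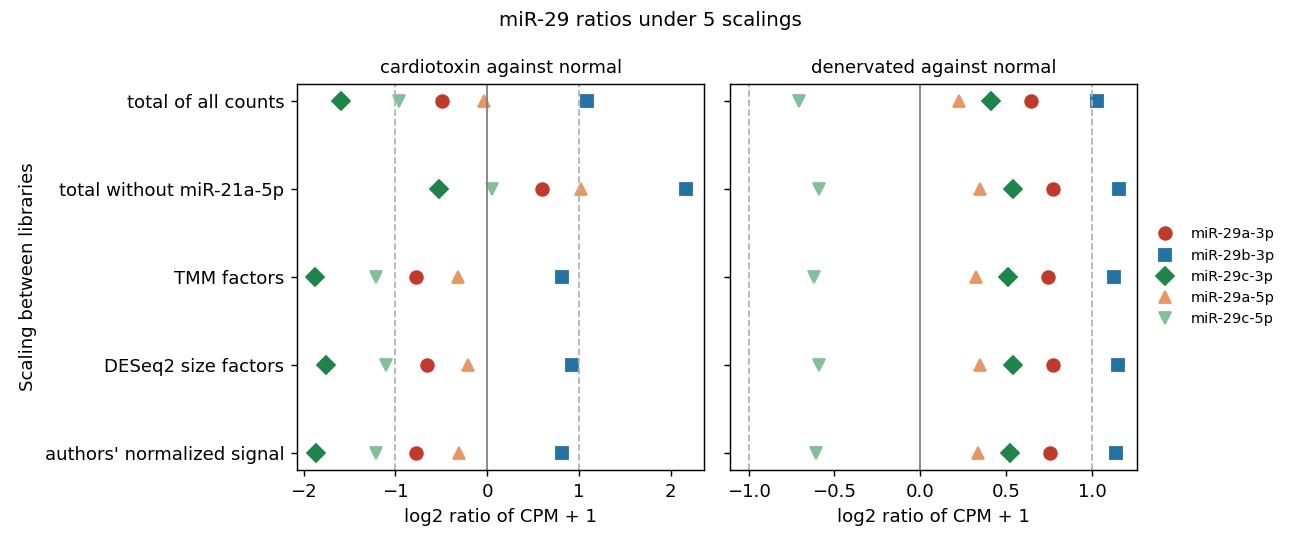
Log2 ratios of the 5 members against normal under the total of all counts and 4 other scalings, with dashed lines at 2-fold. In cardiotoxin the members shift together, miR-29a-3p from -0.49 with the total of all counts to 0.60 without miR-21a-5p, and keep their order; in denervated the shifts are small.

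Between denervated and normal, miR-29 levels were mostly higher in the denervated library. miR-29b-3p was 2.08-fold higher (1.70 to 2.57), with a log2 ratio of 1.03, and was the only 1 of the 5 members to reach 2-fold, against 12.6% of the 446 items 2-fold apart, 6.28% higher and 6.28% lower. Its interval reaches under 2-fold, and with a pseudocount of 10 its log2 ratio was 0.84. miR-29a-3p was 1.56-fold higher (1.55 to 1.58), a log2 ratio of 0.65 that exceeded the ratios of 89.0% of the items. miR-29c-3p was 1.34-fold higher (1.21 to 1.48). Each of these 3p arms kept its direction under every scaling tried, and the median of all items moved by at most 0.11.

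The 5p arms differed in direction between these libraries. miR-29a-5p was 1.18-fold higher in denervated, with an interval (0.946 to 1.47) that includes no difference. miR-29c-5p was 1.69-fold lower (1.23 to 2.33), a log2 ratio of -0.71 that was lower than those of all but 9.64% of the items. The median log2 ratio of the 5 members was 0.41, beside -0.09 over all items. In the denervated library 5 of 5 miRNAs of muscle fibres were past 2-fold higher (summed level 3159 CPM, against 903 CPM in normal), 4 of 6 leukocyte miRNAs were higher, 2 of 2 endothelial miRNAs were lower (1659 CPM, against 5401 CPM in normal) and 4 of 5 epithelial miRNAs were lower (470 CPM, against 904 CPM in normal). Over all items 6.28% were 2-fold higher and 6.28% lower, and none of the 7 mesenchymal miRNAs was 2-fold apart. The part of these cell types in the miR-29 values was not tested.

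The injuries were also set against each other, with the cardiotoxin library over the denervated one. miR-29a-3p was 2.19-fold lower in cardiotoxin (2.17 to 2.22) and miR-29c-3p 4.09-fold lower (3.46 to 4.89), and these 2 of 5 members reached 2-fold, beside 72.2% of the items, 33.6% higher and 38.6% lower. miR-29b-3p differed by 1.04-fold (0.882 to 1.23), miR-29a-5p was 1.21-fold lower (0.956 to 1.54) and miR-29c-5p 1.21-fold lower (0.797 to 1.88). All 3 of these intervals include no difference. Under totals without miR-21a-5p, miR-29a-3p had a log2 ratio of -0.17 in place of -1.13, and miR-29c-3p one of -1.07 in place of -2.01. miR-29b-3p was then at 1.01, past 2-fold higher, in place of 0.06, and miR-29a-5p at 0.67 and miR-29c-5p at 0.64 changed sign. With TMM factors miR-29b-3p was at -0.32, with DESeq2 size factors at -0.23 and with the authors' signal at -0.32, so its direction between the injuries rests on the scaling. Items at least 2-fold apart numbered 212 higher and 135 lower under totals without miR-21a-5p, in place of 150 and 172. With TMM factors 110 were higher and 191 lower, and with the authors' signal 110 were higher and 192 lower. The comparisons with normal share the normal library, so their values are not independent of each other. In cardiotoxin against denervated, 6 of 6 leukocyte and 2 of 2 endothelial miRNAs were higher in cardiotoxin, and 7 of 7 mesenchymal and 4 of 5 muscle fibre miRNAs lower. Under totals without miR-21a-5p, 1 of 5 muscle fibre miRNAs was 2-fold lower, and with TMM factors or the authors' signal 5 of 6 leukocyte miRNAs were higher. Of 5 epithelial miRNAs 3 were higher in cardiotoxin and 2 lower.

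**Figure D4:**
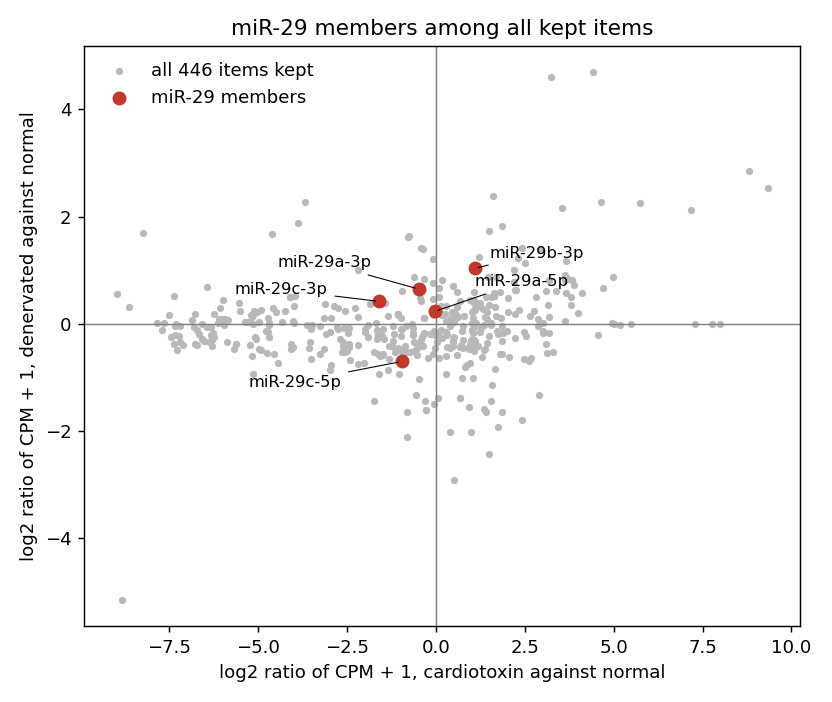
Each of the 446 items by its log2 ratio in cardiotoxin against normal (horizontal) and denervated against normal (vertical), with the 5 miR-29 members in red. Both axes use the same normal library; the members spread from -1.59 to 1.09 along the horizontal axis, where the other items reach much further out.

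Ratios between members within a library do not depend on the scaling. There were 4.81 counts of miR-29b-3p per 1000 counts of miR-29a-3p in cardiotoxin (4.19 to 5.50), 2.10 in denervated (1.90 to 2.31) and 1.58 in normal (1.31 to 1.88). For miR-29c-3p this figure was 3.37 in cardiotoxin (2.84 to 3.93), 6.27 in denervated (5.93 to 6.64) and 7.35 in normal (6.76 to 7.98). The 2 scarce 3p arms thus ran in opposite directions beside miR-29a-3p, with the denervated library between the other two in both. The ratio of miR-29b-3p to miR-29c-3p was 6.65 times as high in cardiotoxin as in normal (4.99 to 8.98) and 1.56 times as high in denervated as in normal (1.24 to 1.97). miR-29a-3p and miR-29c-3p differ only by C10U, and no source used here says how the authors' counting kept such reads apart. Whether reads of miR-29a-3p were counted as miR-29c-3p was not tested, and all values of miR-29c-3p carry this limit.

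The ratio of the 3p arm to the 5p arm, which compares the strands of 1 hairpin, also differed between libraries. miR-29a-3p had 444 counts per count of miR-29a-5p in cardiotoxin (366 to 545), 805 in denervated (710 to 917) and 605 in normal (509 to 725). miR-29c-3p had 4.62 counts per count of miR-29c-5p in cardiotoxin (3.14 to 6.93), 15.6 in denervated (12.4 to 19.9) and 6.92 in normal (5.49 to 8.81). For both hairpins the ratio was highest in denervated and lowest in cardiotoxin. In denervated over normal it was 1.33 times as high for miR-29a (1.07 to 1.65) and 2.26 times as high for miR-29c (1.61 to 3.16). In cardiotoxin over normal it was 0.734 times as high for miR-29a (0.561 to 0.961), and 0.668 times for miR-29c with an interval (0.422 to 1.07) that includes no difference.

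**Figure D5:**
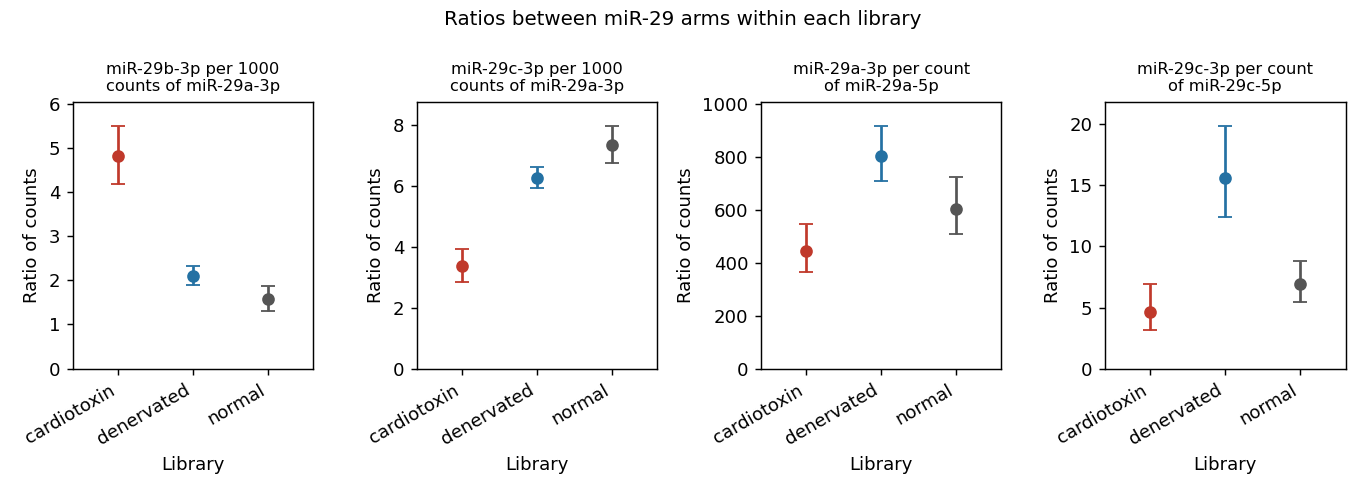
Ratios of counts between miR-29 arms within each library, with exact 95% intervals for counting error; every vertical axis starts at 0. miR-29b-3p beside miR-29a-3p is highest in cardiotoxin (4.81 per 1000) and miR-29c-3p beside miR-29a-3p is lowest there (3.37 per 1000), while both ratios of 3p to 5p are highest in denervated.

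The 5p arms can be assigned to their genes and were used to compare the gene pairs. miR-29b-1-5p, from the pair on chromosome 6, had 56 counts in cardiotoxin (15.4 CPM), 67 in denervated (9.31 CPM) and 11 in normal (2.46 CPM). It was 6.26-fold higher in cardiotoxin than in normal (3.25 to 13.3) and 3.79-fold higher in denervated than in normal (1.99 to 7.95). Its mean over the libraries of 9.06 CPM was under the filter, so it is not among the 446 items. miR-29b-2-5p, from the pair on chromosome 1, had 67 counts in cardiotoxin (18.4 CPM), 183 in denervated (25.4 CPM) and 105 in normal (23.5 CPM). In CPM over all counts, its interval against normal included no difference in both comparisons.

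For miR-29b-3p, which both genes give, the matching 5p arm from chromosome 6 was thus above normal in both libraries from injured muscle. That from chromosome 1 was not. Both statements hold for CPM over all counts, since the other scalings, which shift the cardiotoxin values, were not applied to these arms. The ratio between the arms within a library does not depend on the scaling. The ratio of miR-29b-1-5p to miR-29b-2-5p was 0.836 in cardiotoxin (0.575 to 1.21), 0.366 in denervated (0.272 to 0.487) and 0.105 in normal (0.0507 to 0.195). miR-29a-5p and miR-29c-5p, the other 5p arms of these pairs, had a ratio of 3.09 in cardiotoxin (2.07 to 4.73), 3.09 in denervated (2.39 to 4.03) and 1.55 in normal (1.17 to 2.07). Over all 4 of the 5p arms, the chromosome 6 pair gave 61.2% of 258 counts in cardiotoxin (55.0% to 67.2%), 54.3% of 573 in denervated (50.1% to 58.4%) and 42.7% of 328 in normal (37.3% to 48.2%). The interval of normal does not overlap those of the libraries from injured muscle, whose own intervals overlap each other. This comparison was chosen after its values were seen, and the intervals cover counting error only. The 5p counts are small, and 5p arms stand for the activity of a gene only as far as their stability is alike between libraries, which was not tested.

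The miRNAs whose pattern over the 3 libraries was most like that of the summed 3p arms were sought among 200 other mature mouse miRNAs whose mean level reached 100 CPM. Likeness was the distance in the plane of the log2 ratios against normal, where the summed 3p arms stood at -0.49 for cardiotoxin and 0.64 for denervated. let-7d-5p was nearest at a distance of 0.17, with 3287 CPM in cardiotoxin, 6306 CPM in denervated and 4512 CPM in normal. It was followed by miR-674-3p (0.23), miR-335-3p (0.48), miR-149-5p (0.56), let-7f-5p (0.63) and let-7j (0.67), while the median distance of the 200 was 2.40. As only the miR-29 3p arms carry the seed AGCACCA, none of these could share it. Within the family, miR-29b-3p (1.63) and miR-29c-3p (1.13) lay nearer to the summed 3p arms, in effect miR-29a-3p, than that median. The distance between miR-29b-3p and miR-29c-3p themselves was 2.75, which is above that median.

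Other miRNAs described as regulators of fibrosis were set beside miR-29. Of 17 kept miRNAs described as restraining fibrosis, such as by acting on connective tissue growth factor or on transforming growth factor beta signalling, 6 were at least 2-fold higher and 4 lower in cardiotoxin against normal, with a median log2 ratio of -0.03, beside 32.3% higher and 39.5% lower over all items. These became 10 higher and 3 lower under totals without miR-21a-5p, with a median of 1.06, and 5 higher and 6 lower with TMM factors, with a median of -0.31. In denervated against normal 2 were higher and 4 lower, with a median of -0.15, beside 6.28% of all items in each direction. Among the 4 lower were miR-200a-3p, miR-200b-3p and miR-200c-3p, which are also epithelial markers. The 2 higher included miR-133a-3p, also a muscle fibre marker. Totals without miR-21a-5p, TMM, DESeq2 and the authors' signal each gave 3 higher and 3 lower in denervated against normal, with medians from -0.05 to -0.02. miR-26a-5p, which had the highest mean over the libraries, stood at 6964 CPM in cardiotoxin, 41554 CPM in denervated and 33919 CPM in normal, and miR-101a-3p at 3466, 28972 and 27066 CPM in the same order. miR-30a-5p was at 3328 CPM in cardiotoxin, 13381 CPM in denervated and 18959 CPM in normal, whereas miR-30d-5p was at 16022 CPM in cardiotoxin, 12705 CPM in denervated and 15197 CPM in normal. In cardiotoxin, miR-26a-5p and miR-101a-3p were thus further below normal than miR-29a-3p was.

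Of 8 kept miRNAs described as promoting fibrosis, 4 were at least 2-fold higher and 4 lower in cardiotoxin against normal, with a median log2 ratio of 0.51, beside the same 32.3% and 39.5% of all items. Under totals without miR-21a-5p 4 were higher and 3 lower, with a median of 1.59. In denervated against normal 3 were higher and none was lower, with a median of 0.60, beside 6.28% of all items in each direction. The 3 higher were both arms of miR-21a, miR-21a-5p (log2 ratio 2.28) and miR-21a-3p (2.17), and miR-155-5p (1.14), also a leukocyte marker. Both arms of miR-21a were also among the 4 higher in cardiotoxin, so these counts are not of separate genes. miR-21a-5p was 25.1-fold higher in cardiotoxin than in normal and 4.84-fold higher in denervated than in normal. miR-199a-5p, which is also a mesenchymal marker, was at 195 CPM in cardiotoxin, 46083 CPM in denervated and 32316 CPM in normal. miR-214-3p, which shares a transcript with a miR-199a gene, was at 31.4 CPM in cardiotoxin, 4517 CPM in denervated and 2819 CPM in normal, and miR-145a-5p at 599, 1629 and 2737 CPM in the same order. In denervated, miR-29a-3p and miR-21a-5p were both above normal. In cardiotoxin, miR-21a-5p was above normal and miR-29a-3p 1.40-fold below it in CPM over all counts.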

How the data were processed

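Per the labels' protocols, total RNA was made into libraries with the TruSeq small RNA kit. The deposited table gave estimated counts per miRNA row, marked raw per the file headers, of which 87.9% to 88.4% were whole within 1e-06. The authors' normalized signal equalled the deposited count times 1.12 (cardiotoxin), 0.746 (denervated) and 1.11 (normal). Where these factors come from, and which filters, aligner, genome build and miRBase release were used, were not given in any source used. The submitters' processing notes name StringTie, without a version or role. A total of 3 lines had been emptied and are not analysed here.

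The column headers ctxD5, DN3W and Control were matched to the titles. Rows with the same mature mouse name, cut before any suffix, were summed, which left 1097 items from 1108 rows. CPM was taken over the total of all rows. Ratios are log2 of CPM plus 1, folds are from CPM without it, and an item was called at 2-fold with a mean of at least 10 CPM. Intervals are exact Poisson (levels), Clopper-Pearson (shares, folds by the conditional binomial) and exact conditional (ratios of ratios), on rounded counts, and cover only counting error: with no molecular identifiers, PCR copies of a molecule are counted apart. The functions were tested on simulated data. Tools were Python 3.11.15 with scipy 1.17.1, and R 4.3.3 with edgeR 4.0.16 and DESeq2 1.42.0 for scaling factors only. Alternatives were 5 scalings, pseudocounts of 0.1 and 10, and no filter or one of 100 CPM.

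Members and lists were chosen with earlier results of these data known. The text names all members, the 6 nearest patterns and up to 4 of each fibrosis list with the highest mean. It also names the fibrosis list members that are cell type markers and were 2-fold apart in denervated against normal, and miR-21a-3p as the other arm of miR-21a. The 5p arms of miR-29b and the ratios between gene pairs were chosen after their values were seen. Cell type lists were mesenchymal, leukocyte, muscle fibre, endothelial and epithelial miRNAs.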

Additional observations from a re-analysis of the deposited data

How the results depend on the processing

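The log2 ratio of the summed miR-29 3p arms in cardiotoxin against normal was -0.49 as reported, 0.60 under totals without miR-21a-5p, -0.78 with TMM factors, -0.66 with DESeq2 size factors and -0.77 with the authors' signal. In denervated against normal it was 0.64 as reported, and 0.77, 0.74, 0.77 and 0.75 in the same order. In cardiotoxin against denervated it was -1.13 as reported, and -0.17, -1.52, -1.43 and -1.53. The total of mature mouse rows, the other pseudocounts and the wider search for rows with the name and the seed left these 3 values within their counting intervals. That search found only the 3 member rows. The share of miR-29a-3p in the summed 3p arms stayed within its interval in all 3 libraries. Its only alternatives were that search and rounded counts, which could hardly have moved it. Items at least 2-fold apart numbered 702 without a filter and 154 at a mean of at least 100 CPM in cardiotoxin against normal (320 as reported), 237 and 25 in denervated against normal (56), and 658 and 153 in cardiotoxin against denervated (322), since these filters change how many items are counted (1097 and 219 in place of 446). No paired analysis was possible because each condition has 1 library. At a count of 33 for miR-29c-5p in cardiotoxin, and of 11 for miR-29b-1-5p in normal, depth limits what can be told apart.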
